A study of Mus musculus with 2 samples.

Results

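The cells described here are LSK cells that carried at least 2 transcripts of Dntt, the gene of terminal deoxynucleotidyl transferase, and they numbered 839 of the 4068 cells that passed the filter on quality. LSK cells are bone marrow cells negative for lineage markers and positive for Sca-1 and c-Kit, a fraction with stem cells and early multipotent progenitors. Their donors were C57BL/6JRj mice, 4 young animals of 3 to 5 months and 4 old animals of 22 to 28 months, and the cells of each age were pooled into 1 library. CITE-Seq captures, in 1 droplet per cell, both its transcripts and DNA-tagged antibodies bound to its surface, each counted as unique molecular identifiers (UMIs). The 2 libraries share 1 deposited matrix, and the barcode of a cell ends in 1 or 2 according to its library. Which ending is the young library is not given, so no comparison of ages is made, the matrix counts as 1 sample, and no test was run. Every interval below is a 95% interval for counting error only, since cells of 1 library are not replicates.

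Terminal deoxynucleotidyl transferase adds nucleotides without a template to the joints of rearranging antigen receptor genes, and its transcript is among the earliest lymphoid transcripts in the stem and progenitor compartment. Among LSK cells it is a hallmark of lymphoid-primed multipotent progenitors, which carry the receptor tyrosine kinase Flt3 at a high level, have lost the potential to form megakaryocytes and erythroid cells, and keep the potential for B, T and some myeloid fates. Such cells pass on to common lymphoid progenitors, in which the interleukin 7 receptor and the recombinase genes Rag1 and Rag2 are switched on.

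The 839 cells were selected on their Dntt UMIs after removal of cells with 10% or more mitochondrial UMIs or with 1500 genes or fewer. They made up 20.6% of the kept cells (19.4 to 21.9%). They were 437 of 1524 cells of suffix 1, or 28.7% (26.4 to 31.0%), and 402 of 2544 cells of suffix 2, or 15.8% (14.4 to 17.3%). They held 15700 of the 15989 Dntt UMIs of the kept cells (98.2%). A member carried a median of 8 Dntt UMIs, with quartiles of 3 and 21.5 and a highest value of 210. The comparison cells were the 715 kept cells with at least 2 Flt3 UMIs and no Dntt UMI, 367 of suffix 1 and 348 of suffix 2, here called Flt3-positive Dntt-negative cells. No barcode sequence occurred in both libraries. Scrublet called 11 of the 839 members and 9 of the 715 comparison cells doublets, and these were kept.

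As cells that should lack lymphoid transcripts, 555 cells were taken from the tags, the upper quartile of CD150 (75th percentile) combined with the lower quartile of CD48 (25th percentile) in each library, a profile of long-term stem cells. The gate is relative to each library, and the CD48 median of its cells was 111 tags in suffix 1 and 20 in suffix 2. Of the 555 cells, 11 (1.98%) had a Dntt UMI and none had 2 or more. With 3 counts as the limit that a count of 0 allows, here and below, 0 of 555 allows a share of up to 0.541% with 2 or more. With every cell thinned to 9000 UMIs, 7 of 519 CD150-high CD48-low cells had a Dntt UMI (1.35%, 0.544 to 2.76%). The members were the deepest of these groups. Their median was 21223 UMIs per cell, that of the Flt3-positive Dntt-negative cells 15366 and that of the CD150-high CD48-low cells 13334.

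The promoters of Dntt and Il7r are shown because the former gene chose the cells and the latter had the largest ratio between members and comparison cells. Both are the 250 bases before the start of the gene in RefSeq (GRCm38.p6), 5′ to 3′ on the strand of the gene, and capitals mark ACTTCC, the reverse complement of the ETS core GGAAGT. The Dntt window lies directly before the start of this gene on the plus strand, at chr19:41029025-41029274. The Il7r window is on the minus strand at chr15:9529877-9530126, before the start of the coding transcripts, and overlaps the opening exon of a non-coding transcript of Il7r in the GENCODE annotation.
Dntt: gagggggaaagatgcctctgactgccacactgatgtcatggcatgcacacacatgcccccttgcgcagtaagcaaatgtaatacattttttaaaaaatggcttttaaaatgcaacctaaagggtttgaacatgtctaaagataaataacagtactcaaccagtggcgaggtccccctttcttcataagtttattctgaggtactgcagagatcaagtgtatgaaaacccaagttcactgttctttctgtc
Il7r: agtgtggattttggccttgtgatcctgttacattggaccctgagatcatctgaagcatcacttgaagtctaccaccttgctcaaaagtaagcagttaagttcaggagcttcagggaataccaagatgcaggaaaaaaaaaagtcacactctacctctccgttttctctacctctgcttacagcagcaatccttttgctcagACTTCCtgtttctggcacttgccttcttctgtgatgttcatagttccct
The Dntt window held none of 5 motifs searched on both strands, the E-box letters CAGGTG and CAGCTG, the Ikaros letters TGGGAA, the EBF letters CCCNNGGG and the ETS letters GGAAGT. The Il7r window held the ETS letters once and none of the others. A match is a description of letters, not of a bound site.

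The transcripts named as markers of these cells differed in how far they set them apart. Satb1, a chromatin organizer of lymphoid development, reached 203 CPM (UMIs of the gene per 1000000 UMIs of the same cells) in members and 72.1 CPM in comparison cells, a ratio of 2.82 (2.62 to 3.03). It was 2.64 for suffix 1 and 3.01 for suffix 2. Satb1 was thus higher in members in each library. Cd52, a small surface glycoprotein of lymphocytes, was at 338 against 237 CPM, a ratio of 1.43 (1.37 to 1.49), and was past the 1.5-fold mark in suffix 1 (1.65) and short of it in suffix 2 (1.32). Flt3 was at 310 CPM in members and 197 CPM in comparison cells (1.58, with an upper bound of 1.65), although the comparison cells and not the members had been selected on Flt3. It was not called, since its ratio was 1.48 in suffix 1 and 1.67 in suffix 2. Of the members, 774 (92.3%) carried at least 2 Flt3 UMIs, 46 carried 1 and 19 carried none. In CD150-high CD48-low cells, 5.95% had a Satb1 UMI, 9.01% a Cd52 UMI and 6.31% a Flt3 UMI, against 92.0%, 97.1% and 97.7% of members. After thinning, the Satb1 share was 74.2% in members (71.1 to 77.2%), 43.9% in comparison cells (40.1 to 47.7%) and 4.82% in CD150-high CD48-low cells. Of 10 further lymphoid markers, 8 had a UMI in at least 5% of the cells of either group. Of these, 4 (Il7r, Notch1, Ighm and Il12a) were past the 1.5-fold mark upward and none downward. Among all genes tested in this way, 1.71% were past it upward and 4.81% downward. Il7r reached the 5% limit in members alone, so it could only be higher. Kit, the gene of c-Kit, had a UMI in 83.6% of members, and Ly6a, the gene of Sca-1, was at 226 CPM, so the genes behind both sorting antibodies were detected in members.

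Across the transcriptome, 10850 genes other than Dntt had a UMI in at least 5% of members or of comparison cells. A gene was called where its CPM ratio was 1.5 or more, or its inverse, over all cells and within each library. By this mark 185 genes were higher in members (1.71% of those tested) and 522 were lower (4.81%). Over all cells, 89 of the former and 262 of the latter differed by 2-fold or more. The median log2 ratio of all tested genes, with 5 CPM added to both values was -0.03, a value that scaling to the total keeps near 0. Without the demand on each library, 309 genes were past 1.5-fold upward and 786 downward. There were 17 genes that passed the mark in opposite directions in the libraries.

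**Figure D1:**
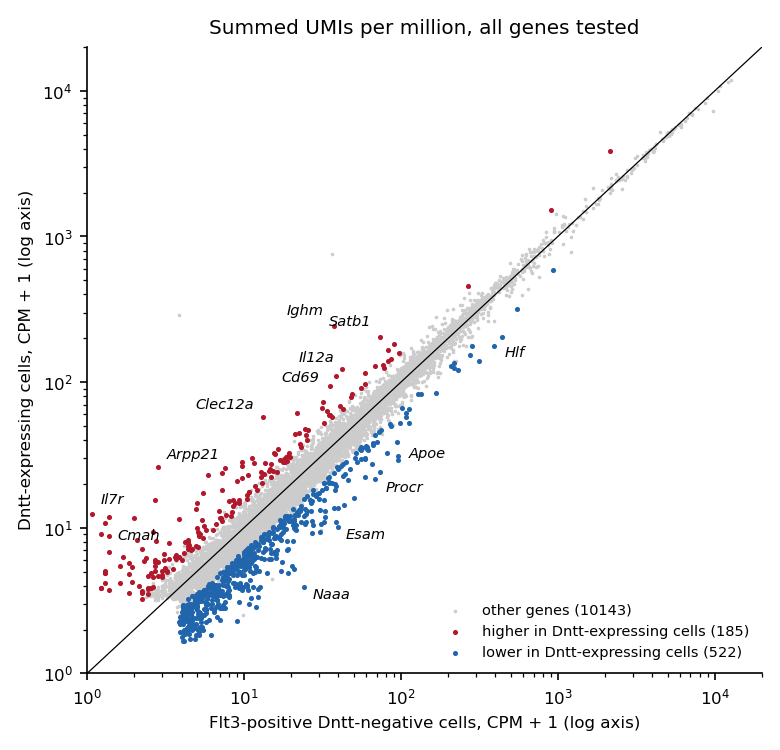
CPM + 1 of each of the 10850 tested genes in Flt3-positive Dntt-negative cells (x axis) and in Dntt-expressing cells (y axis), both on log axes, with 1 point per gene and the line of equal level. Most points lie along the line, the 185 genes called higher lie above it, Ighm, Arpp21 and Il7r among them, and the 522 called lower lie below it, Procr, Apoe and Esam among them.

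Among the 15 called genes with the largest log2 ratios were Ighm, Arpp21, Cnn3, Il7r and Satb1. Ighm, the constant region of the immunoglobulin mu chain, whose unrearranged locus is transcribed in early lymphoid cells, was at 243 CPM in members and 36.5 CPM in comparison cells (6.66, 6.06 to 7.34). Members of suffix 1 and 2 had 251 and 235 CPM, and comparison cells of either library 36.5 CPM, so the groups stood apart in the same way in each library. It was seen in 80.7% of members, 26.2% of comparison cells and 12.1% of CD150-high CD48-low cells. Arpp21, a gene of early B and T cell precursors, was at 25.1 CPM against 1.84 CPM (13.6, 9.03 to 21.4), with ratios of 13.6 and 13.5 in the libraries. Cnn3, a calponin, was at 22.0 CPM against 4.92 CPM (4.48, 3.44 to 5.92). Il7r, the alpha chain of the interleukin 7 receptor, was almost absent from the comparison cells. It had 221 UMIs in 67 members (114 of suffix 1 and 107 of suffix 2) and 1 UMI in the comparison cells, a ratio of 149 with the wide interval of 26.4 to 5898 that a single UMI gives. None of the 555 CD150-high CD48-low cells had an Il7r UMI.

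Il12a, Cd69, Clec12a, Clec2i, Sstr2 and Ncf1 were also among these 15 genes. Il12a, the p35 chain of interleukin 12, was at 123 CPM in members and 41.3 CPM in comparison cells (2.97, 2.71 to 3.27). Cd69, a lectin of activated lymphocytes, was at 110 CPM against 37.5 CPM (2.92, 2.65 to 3.23). Clec12a, an inhibitory lectin of myeloid cells, was at 56.4 CPM against 12.1 CPM (4.64, 3.93 to 5.52). Its ratio was 6.78 within suffix 1 and 3.71 within suffix 2, each past the mark. Clec2i, a ligand of natural killer receptors, was at 14.4 CPM against 1.69 CPM (8.53, 5.52 to 13.8). Sstr2, a somatostatin receptor, was at 24.8 CPM against 6.61 CPM, and Ncf1, a subunit of the phagocyte oxidase, at 60.6 CPM against 20.8 CPM. The other genes with the 15 largest log2 ratios were Cox6a2, Cmah, Tmem108 and Bex6, with ratios of 28.2, 31.8, 10.7 and 2.73. Cox6a2 rested on 5 UMIs and Cmah on 4 UMIs in comparison cells, so their ratios have wide intervals (11.9 to 87.9 and 12.2 to 118). Of these 15 genes, Il7r, Arpp21, Clec2i, Cox6a2, Cmah and Tmem108 reached the detection limit in members alone, so they could only be called higher.

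**Figure D2:**
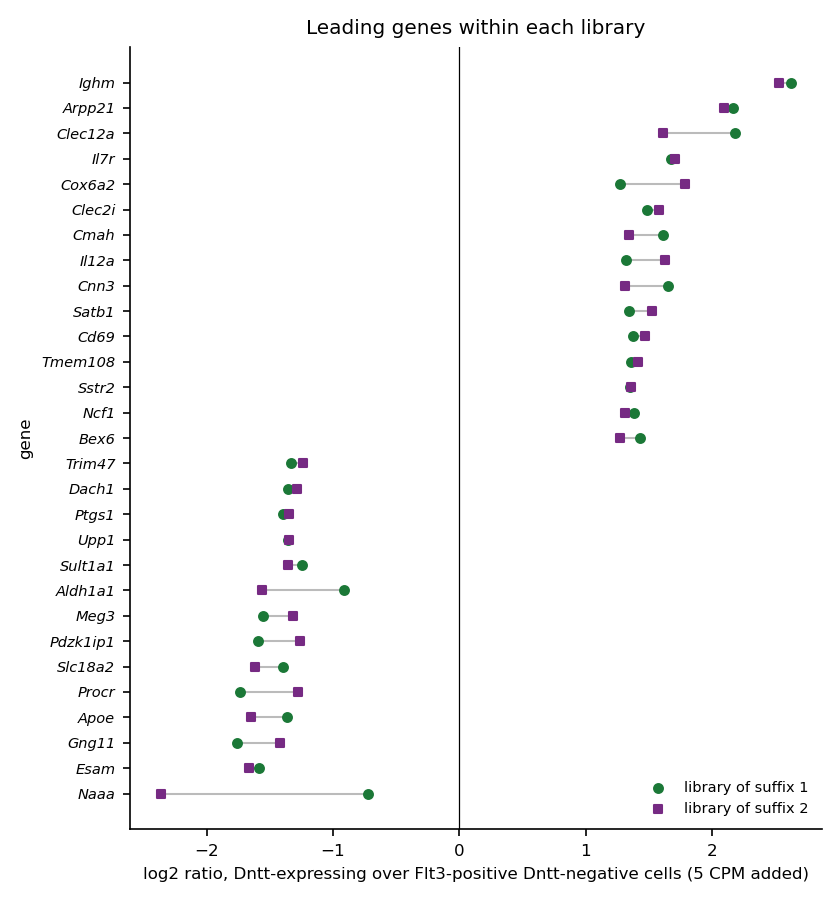
Log2 ratio (5 CPM added) of Dntt-expressing over Flt3-positive Dntt-negative cells for the called genes with the largest and the smallest values, with a circle for suffix 1 and a square for suffix 2 joined by a line. A call required both libraries on the same side of 0, and the values run from Ighm (2.62 and 2.53) to Naaa, whose libraries lie farthest apart (-0.72 and -2.36).

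Procr, Esam, Gng11 and Apoe were among the called genes with the smallest log2 ratios. Procr, the endothelial protein C receptor used to enrich stem cells, was at 20.6 CPM in members and 67.5 CPM in comparison cells (0.305, 0.270 to 0.343). Its ratio was 0.253 within suffix 1 and 0.366 within suffix 2. In CD150-high CD48-low cells 84.5% had a Procr UMI, against 58.5% of comparison cells and 27.7% of members, so the comparison cells stood between members and these cells. Esam, an adhesion molecule of stem and endothelial cells, was at 9.15 CPM against 38.6 CPM (0.237, 0.199 to 0.282). Gng11, a G protein subunit, was at 28.3 CPM against 94.7 CPM (0.299, 0.270 to 0.331). Apoe, the apolipoprotein, was at 30.2 CPM against 95 CPM (0.318, 0.288 to 0.351). All of these had a UMI in 67.6% or more of the CD150-high CD48-low cells. Slc18a2, Pdzk1ip1, Aldh1a1, Sult1a1 and Trim47, seen in 61.6% or more of those cells, had ratios of 0.268, 0.305, 0.215, 0.282 and 0.316. Upp1, Ptgs1, Dach1 and the long non-coding RNA Meg3 completed the list with ratios of 0.232, 0.319, 0.324 and 0.210. Meg3 reached the detection limit in comparison cells alone, so it could only be called lower. Meg3 and Sult1a1 lay in few cells, since the 10 cells with the most held 53.7% and 52.1% of their UMIs in comparison cells and 74.1% and 59.6% in members. The lowest log2 ratio, -1.83, was that of Naaa, an acid amidase. Of its 302 UMIs in comparison cells, 83.4% lay in the 10 cells with the most, so this value too rests on few cells.

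The early lymphoid list of 39 genes had 24 that could be tested, of which 9 were called higher and 2 lower, beside 1.71% and 4.81% of all tested genes, with a median log2 ratio of 0.49 against -0.03 for all tested genes. This list was chosen with earlier results of these cells known. Of the higher genes, Il7r, Rag2, Blnk, Arpp21 and Ccr7 reached the detection limit of 5% of cells in members and not in comparison cells, so such genes could only be higher and the count and median are in part fixed by that limit. Beside Il7r, Satb1, Arpp21, Cnn3 and Il12a, the higher genes were Rag2, Blnk, Notch1 and Ccr7. Notch1, the receptor that directs cells to the T lineage, was at 65.6 CPM against 30.2 CPM (2.17, 1.94 to 2.44). Blnk, an adaptor of the B cell receptor, was at 7.23 CPM against 1.08 CPM (6.73, 3.88 to 12.6). The lower genes were Ltb, lymphotoxin beta, at 83.2 CPM against 166 CPM (0.501, 0.469 to 0.535), and Gata3, a T lineage factor that stem cells also express, at 13.8 CPM against 25.9 CPM (0.533, 0.452 to 0.628). Thus the list did not move as 1 block. Sox4, Bcl11a, Cd27 and Cd79b had ratios of 1.05, 1.10, 1.04 and 1.04, and Mef2c stood just short of the mark, at 1.49 in each library. Pax5, Vpreb2, Igll1 and Dtx1 had no UMI in any member.

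Among genes of V(D)J recombination Rag2 was higher in members. Of 15 genes on this list 12 could be tested, 1 was called higher and none lower, beside 1.71% and 4.81% of all tested genes, with a median log2 ratio of 0.08. Counts this small do not set the list apart from all genes. The gene called higher was Rag2, with 151 UMIs in 88 members and 5 UMIs in comparison cells (20.3, 8.51 to 63.5). Rag1 had 17 UMIs in 13 members and none in comparison cells, and was below the detection limit for a call. The end-joining genes Prkdc, Xrcc4 and Xrcc5 had ratios of 1.07, 0.896 and 0.901, while Xrcc6, the Ku70 gene, was at 92.1 CPM against 59.2 CPM (1.55) and missed the mark in the library of suffix 2 (1.48). Dntt was thus seen with few recombinase transcripts. Among E proteins and their inhibitors, 4 of 7 genes could be tested and none was called. Tcf3, the gene of E2A, had a ratio of 1.21 and Tcf4 one of 1.44. Id2, an inhibitor of E proteins, was at 8.58 CPM against 29.9 CPM, with ratios of 0.864 and 0.187 in the libraries, and was not called.

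Several defining markers of committed lymphocytes had few or no UMIs. On the list of B lineage commitment 5 of 15 genes could be tested. Blnk and Ighm were called higher and none lower, beside 1.71% and 4.81% of all tested genes. Blnk reached the detection limit in members alone, so it could only be called higher. The median log2 ratio was 1.01, and 0.06 without the immunoglobulin-rich member described below. Cd24a was at 147 CPM in members and 158 CPM in comparison cells (0.932). Pax5 had no UMI in members, and 0 of 839 allows a share of up to 0.358% of members with a Pax5 UMI. Ebf1 had 28 UMIs in members and 11 in comparison cells (1.71, 0.826 to 3.81). Cd79a had 35 UMIs in 7 members and Ly6d 85 UMIs in 4 members, so these early B lineage transcripts lay in very few cells. On the list of T and NK cells only Nkg7 could be tested (1.09), and Cd3e, Cd3g, Cd8a, Trac, Gzma and Ncr1 had no UMI in members. The summed level of this list was 177 CPM in members and 160 CPM in comparison cells. Lck, the T cell kinase, which is on none of the lists and was chosen after its values were seen, had a UMI in 37.3% of members and 13.7% of comparison cells. After thinning, its shares were 21.3% (18.6 to 24.3%) and 7.85% (5.95 to 10.1%), with 3.85% in CD150-high CD48-low cells.

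A single member held most Igkc UMIs and most of the summed level of the plasma cell list. It belonged to suffix 2, and 39.3% of its 50844 UMIs were immunoglobulin transcripts, while it also carried 15 Dntt and 8 Flt3 UMIs. Igkc had 14729 UMIs in members, 96.5% of them in the 10 cells with the most. Of 13 plasma cell genes 6 could be tested and only Sdc1 was called (higher, ratio 1.70), beside 1.71% of all tested genes called higher. The list summed to 1157 CPM in members and 127 CPM in comparison cells. In the library of suffix 1, which lacks this cell, the sums were 101 CPM and 97.3 CPM. Without it, over both libraries, the members' sum was 121 CPM. Without it, 184 of the 185 genes called higher over all genes were still called, and the plasma cell list still had 1.

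Most of the tested stem cell genes were lower in members. Of 20 listed genes 18 could be tested, 13 were called lower and none higher, where 4.81% of all tested genes were called lower, with a median log2 ratio of -0.72 against -0.03 for all tested genes. Tek and Hoxb5, among the lower genes, reached the detection limit in comparison cells alone. Hlf, a factor of stem cell identity, was at 176 CPM in members and 390 CPM in comparison cells (0.450, 0.431 to 0.471), with ratios of 0.452 and 0.391 in the libraries. Mecom, another such factor, was at 28.7 CPM against 57.8 CPM (0.496, 0.444 to 0.555). Meis1, the cofactor of Hox proteins, was at 176 CPM against 282 CPM (0.624, 0.596 to 0.654). Hoxa9 (1.12), Ctnnal1 (0.844), Ly6a (0.833), Mycn (0.653) and Prdm16 (0.600) were the tested genes without a call. Of 20 erythroid and megakaryocyte genes 9 could be tested, 6 were called lower and none higher, against the same 4.81%, with a median log2 ratio of -0.99. Gata2 was at 26.6 CPM against 64.7 CPM (0.411), Itga2b, the integrin of platelets, at 6.10 CPM against 18.1 CPM (0.336), and Pf4, platelet factor 4, at 4.81 CPM against 16.4 CPM (0.294). Gata1, the defining factor of this lineage, had 3 UMIs in members and 5 in comparison cells.

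Of 17 granule and myeloid genes 13 could be tested, none was called higher in members and 1 lower, beside 1.71% and 4.81% of all tested genes. Counts this small do not set the list apart. The lower gene was S100a9 (2.38 against 3.69 CPM), which reached the detection limit in comparison cells alone. The median log2 ratio was -0.25. Over the genes tested in each setting it was -0.03 in suffix 1, -0.33 in suffix 2 and -0.03 after thinning to 9000 UMIs. Mpo, myeloperoxidase, was at 122 CPM in members and 62.1 CPM in comparison cells of suffix 1 (1.96), and at 297 CPM and 487 CPM in those of suffix 2 (0.610). Its direction thus turned between the libraries. The comparison cells held it unevenly, with 44.0% of their Mpo UMIs in the 10 cells with the most against 16.9% in members. Mpo was seen in 59.1% of members and 32.3% of comparison cells, and after thinning in 46.9% (43.4 to 50.3%) and 26.0% (22.8 to 29.5%). In CD150-high CD48-low cells the share was 1.98%, and 1.54% after thinning. Over all cells the level was 207 CPM in members against 284 CPM, so share and level went opposite ways and no order of the groups is read from them. Elane, neutrophil elastase, was in too few cells to be tested, with 43 UMIs in 27 members and 313 UMIs in 24 comparison cells. It was at 0.605 against 0.644 CPM in suffix 1 and at 3.92 against 45.4 CPM in suffix 2, so the lower level in members was that of suffix 2. Irf8, a factor of dendritic and monocytic cells, was at 78.0 CPM against 54.1 CPM, with ratios of 4.12 and 1.09 in the libraries and no call. In comparison cells 61.2% of its UMIs lay in the 10 cells with the most, against 17.6% in members. An Irf8 UMI was seen in 50.1% of members, 18.9% of comparison cells and 6.49% of CD150-high CD48-low cells, and after thinning in 32.7% of members (29.5 to 36.0%) and 12.9% of comparison cells (10.5 to 15.7%). The thinned shares of members and comparison cells were 29.2% and 8.09% in suffix 1, and 36.5% and 17.8% in suffix 2.

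Of 16 dendritic and monocytic genes 11 could be tested, none was called higher and 2 lower, beside 1.71% and 4.81% of all tested genes. The lower genes were the MHC class II genes Cd74 and H2-Aa. Cd74, the invariant chain, was at 203 CPM in members and 440 CPM in comparison cells (0.461, 0.443 to 0.481). H2-Aa was at 119 CPM against 231 CPM (0.516, 0.489 to 0.545). In comparison cells the 10 cells with the most Cd74 UMIs held 49.1% of them, against 15.8% in members. For H2-Aa these shares were 44.2% and 14.9%. The comparison levels of both genes thus rest in large part on few cells. Over the 15 MHC genes 3 were called lower, beside 4.81% of all tested genes, with Ciita, the class II transactivator, as the third (0.477). The class I genes H2-K1, H2-D1 and B2m had ratios of 0.928, 0.925 and 0.931. Siglech, a marker of plasmacytoid dendritic cells, had 6 UMIs in members.

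Among 20 receptors of cytokines and growth factors, 19 could be tested, 3 were called higher (Il7r, Notch1 and Il1r1) and 2 lower. Of all tested genes 1.71% were called higher and 4.81% lower. Tek, the angiopoietin receptor, was among the lower ones, and the median log2 ratio was -0.01. Il7r reached the detection limit in members alone and Tek in comparison cells alone. Thus Il7r could only be called higher and Tek lower. Il1r1, the signalling receptor of interleukin 1, was at 36.4 CPM against 21.6 CPM (1.69, 1.47 to 1.94). Kit was at 101 CPM against 139 CPM (0.725, 0.680 to 0.773), and Csf3r and Csf2ra had ratios of 0.856 and 0.804. Of 19 homing and adhesion genes 16 could be tested, 2 were called higher and 2 lower, beside 1.71% and 4.81% of all tested genes. Itgal, an integrin of leukocytes, was at 31.8 CPM against 14.5 CPM (2.19, 1.86 to 2.59), and Ccr7, the chemokine receptor that guides cells to lymph nodes and the thymus, had 78 UMIs in members against 4 (13.1, 4.92 to 49.3). Ccr7 reached the detection limit in members alone, so it could only be called higher. Esam and S1pr1, the receptor for sphingosine 1-phosphate (0.458), were the lower ones. Ccr9, the other thymus homing receptor, had 134 UMIs in 31 members and 9 UMIs in comparison cells, too few cells for a call.

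Mitotic and S phase genes both took a larger share of the UMIs of the median member than of the median comparison cell, and calls were made among the mitotic genes alone. Of 23 genes of G2 and mitosis 10 were called higher and none lower, beside 1.71% of all tested genes called higher, with a median log2 ratio of 0.60. Ube2c, a ubiquitin-conjugating enzyme of mitotic exit, was at 181 CPM against 89.9 CPM (2.02, 1.89 to 2.16), and Ccnb1, cyclin B1, at 62.4 CPM against 32.7 CPM (1.91, 1.71 to 2.14). None of the 24 S phase genes was called, and their median log2 ratio was 0.26, with 0.51 in suffix 1, where 7 were past the mark, and 0.06 in suffix 2, where none was. They made up 0.223% of the UMIs of the median member and 0.0996% of those of the median comparison cell, with 0.222% against 0.0856% in suffix 1 and 0.226% against 0.143% in suffix 2. For the mitotic list the shares were 0.0300% and 0.0161%. Taken alone, suffix 1 had 21 of the 23 mitotic genes past the mark and suffix 2 had 10. The share of a cell's UMIs in the mitotic list exceeded the 90th percentile of the comparison cells of its library in 21.3% of members (18.6 to 24.3%), 23.6% of those of suffix 1 and 18.9% of those of suffix 2. Depth moved with this result: among cells of 15000 to 20000 UMIs, 174 members and 156 comparison cells, none of 21 tested mitotic genes was called and their median log2 ratio was 0.19. In the same cells the S phase median was -0.15 and 1 of its genes was called lower. With every cell thinned to 9000 UMIs, 12 of 23 mitotic genes were called. The part of depth, which itself differs along the cell cycle, was not tested.

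Among genes of interferon response and of immediate early induction, Ifi27l2a and Btg2 were called higher in members and none lower. Of 19 interferon-stimulated genes 1 was higher, Ifi27l2a, at 72.2 CPM against 30.9 CPM (2.34, 2.09 to 2.62), and the median log2 ratio was -0.10. Among cells of 15000 to 20000 UMIs the median turned to 0.33, with 3 genes called higher. Of 18 immediate early genes 15 could be tested and 1 was called higher, Btg2, at 124 CPM against 77.5 CPM (1.60), with a median log2 ratio of -0.31. Beside 1.71% of all tested genes called higher, 1 gene on a list of this size says nothing of the list. Dusp1 and Klf6 were at 0.703 and 0.738 of the comparison level and were not called.

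**Figure D3:**
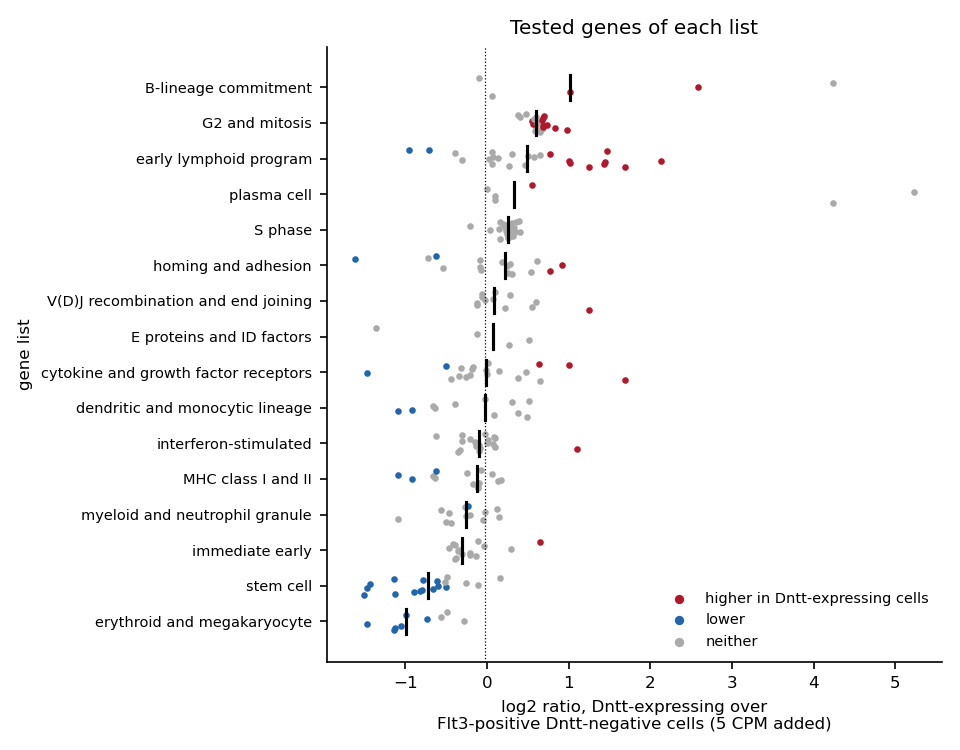
Log2 ratio (5 CPM added) of Dntt-expressing over Flt3-positive Dntt-negative cells for the tested genes of each list, 1 point per gene, with a bar at the median of the list and a line at that of all tested genes (-0.03). The stem cell (-0.72) and erythroid and megakaryocyte (-0.99) medians lie to the left, those of the early lymphoid (0.49) and mitotic (0.60) lists to the right. The B lineage median (1.01, 5 tested genes) lies farthest right, and without 1 immunoglobulin-rich member it is 0.06. That member also carries the far points of the plasma cell and B lineage lists, Igkc (4.24) and Ighg2b (5.23).

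Members varied among themselves with their Dntt level. Just inside the threshold were 125 cells with 2 Dntt UMIs and just outside 289 cells with 1. The classes of 1 or more Dntt UMIs took all kept cells, while the comparison cells also had to carry Flt3. Satb1 was at 86.7 CPM with 1 Dntt UMI, 128 CPM with 2, 164 CPM with 3 to 5, 199 CPM with 6 to 20 and 271 CPM with 21 or more, against 72.1 CPM in the comparison cells. Ighm took the same order, with 45.6, 67.9, 137, 244 and 399 CPM. Both thus grew along the Dntt classes. At the threshold the Satb1 interval with 1 Dntt UMI (79.2 to 94.7 CPM) lay below that with 2 (115 to 143 CPM). Il12a was at 47.3, 55.8, 84.7, 111 and 193 CPM. Stem cell transcripts ran the other way. Procr was at 55.1, 34.5, 32.6, 19.1 and 6.81 CPM over these classes and Hlf at 281, 264, 227, 169 and 106 CPM, while Kit was at 137, 132, 118, 105 and 70.5 CPM. Cd27 (221 to 256 CPM) and Bcl11a (219 to 264 CPM) varied little. The median depth of the classes also grew, from 17249 UMIs with 1 Dntt UMI to 18202, 18773, 19867 and 26850, and its part in these orders was not tested.

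Il7r and the recombinase genes lay mostly at the upper end. Il7r had no UMI in cells with 1 Dntt UMI, with 2 or with 3 to 5, 16 UMIs in 11 of the 276 members with 6 to 20, and 205 UMIs in 56 of the 223 members with 21 or more (25.1%, 19.6 to 31.3%). These 3 lower classes together held 629 cells, and 0 of 629 allows a share of up to 0.477%. All 27 members of suffix 2 with an Il7r UMI had 21 or more Dntt UMIs, as did 29 of 40 in suffix 1. All 17 Rag1 UMIs lay in members with 6 or more Dntt UMIs. Rag2 was at 19.8 CPM with 21 or more and at 4.08 CPM with 6 to 20, against 0.384 to 1.14 CPM in the classes below. Arpp21, at 54.2 CPM with 21 or more, 18.3 CPM with 6 to 20 and 1.84 CPM in comparison cells, showed the same order over a wider range of classes. Mpo had no such order, with 234, 271, 201 and 153 CPM in members with 2, 3 to 5, 6 to 20 and 21 or more Dntt UMIs.

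**Figure D4:**
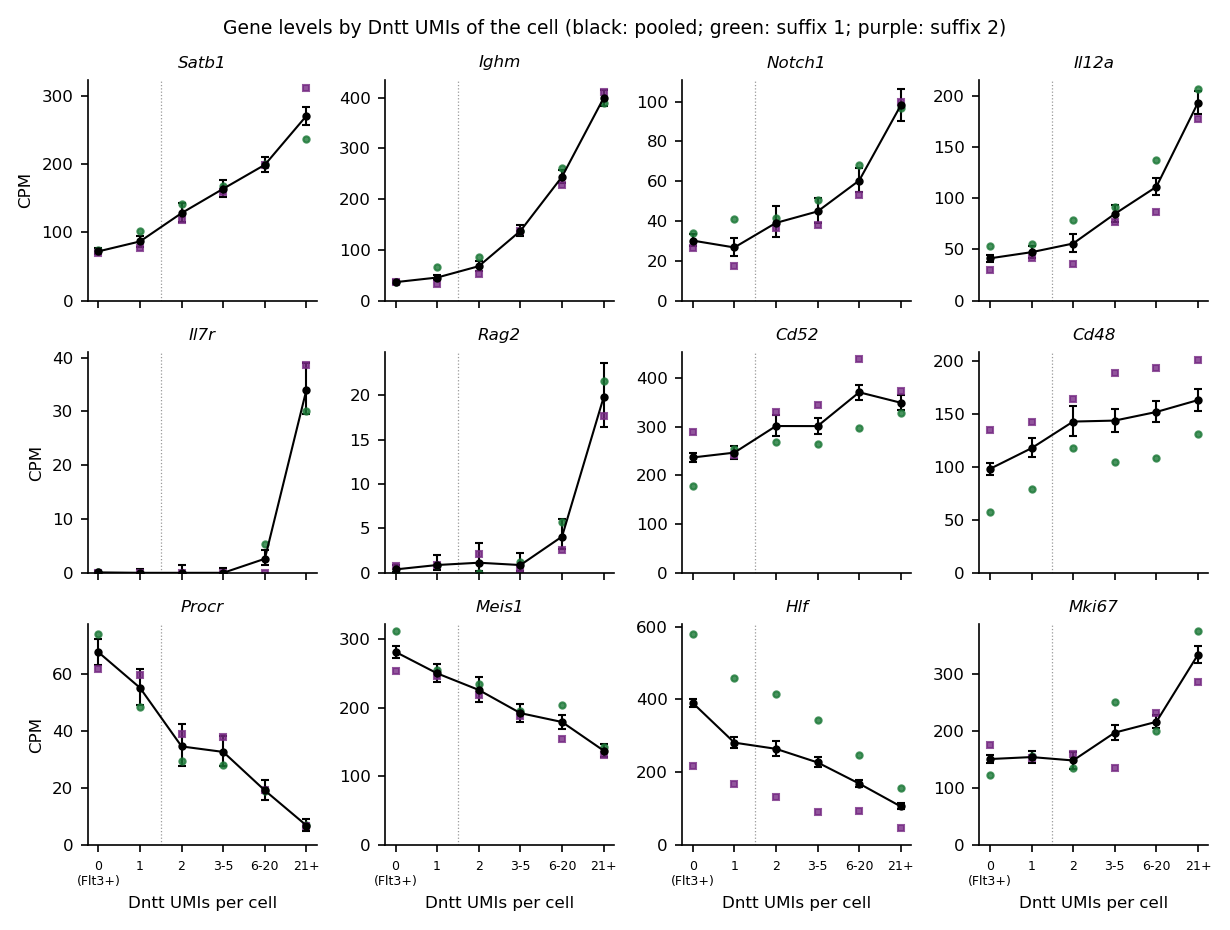
CPM of 12 genes in cells with 0 (Flt3-positive comparison cells), 1, 2, 3 to 5, 6 to 20 and 21 or more Dntt UMIs, with all cells in black with 95% Poisson intervals for counting error, suffix 1 in green, suffix 2 in purple, and a dotted line at the threshold. Satb1 and Ighm grow from 72.1 and 36.5 CPM to 271 and 399 CPM, Il7r appears at 6 to 20 Dntt UMIs, and Procr, Meis1 and Hlf decline.

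Surface tags, which the selection did not use, were available for 837 members and 703 comparison cells. CD48, absent from long-term stem cells and present on multipotent progenitors, had a median of 757 tags in members (725 to 782) and 414 in comparison cells (381 to 446). The medians were 860 and 420 within suffix 1, and 666 and 412 within suffix 2. CD150, carried by stem cells and megakaryocyte progenitors, had a median of 4 tags (3 to 4) in members, 6 (5 to 6) in comparison cells and 679 in CD150-high CD48-low cells, which were chosen by it. CLCA3A1, read through an antibody against the dye PE, had a median of 6 tags (5 to 6) against 10 (9 to 11). In CD150-high CD48-low cells its median was 154, and this differed between libraries, with 25 in suffix 1 and 214 in suffix 2, as did that of CD150, with 189 and 775. Members were thus CD48-high, with little CD150 and CLCA3A1. Unmapped tags were higher in members as well, at a median of 43 (42 to 46) against 30 (28 to 32). On the log10 scale the CD48 medians differed by 0.26 in raw counts, by 0.245 as centred log ratios over the tags of a cell and by 0.02 as shares of those tags. CD48 made up most of the tags of the median cell in both groups, and how far this bounds its share was not tested. The part of overall tagging in the CD48 difference was not tested. The Cd48 transcript was at 152 CPM against 98.3 CPM (1.55, 1.45 to 1.66), with ratios of 2.01 and 1.41 in the libraries. With the Dntt level the CD48 median went from 519 (1 Dntt UMI) to 677, 698, 725 and 860 tags, and that of CLCA3A1 from 10.5 to 8, 7, 6 and 3.

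**Figure D5:**
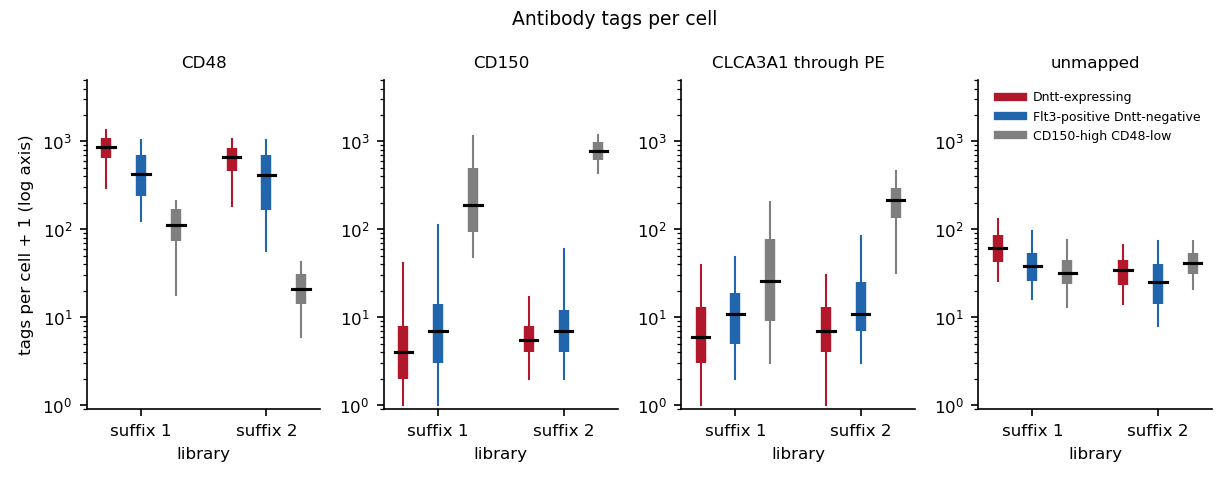
Tags per cell + 1 (log axis) for CD48, CD150, CLCA3A1 through PE and unmapped tags in 3 groups of cells of each library, with a black line at the median, a thick bar from the 25th to the 75th and a thin one from the 5th to the 95th percentile of cells. Members have CD48 medians of 860 and 666 tags in suffix 1 and 2, above those of the comparison cells (420 and 412), and CD150 medians far below those of CD150-high CD48-low cells.

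Members of the libraries differed from each other too. Of 10847 genes tested between members of suffix 2 and of suffix 1, 262 (2.42%) were higher and 582 (5.37%) lower in suffix 2 by 1.5-fold or more. Il7r was at 11.3 CPM in suffix 2 and 11.5 CPM in suffix 1, and Satb1 at 211 CPM and 197 CPM, neither past the mark. Dntt, on which the cells were selected, was at 802 CPM and 821 CPM. Ctsg, cathepsin G, was at 293 CPM in suffix 2 against 45.2 CPM in suffix 1 (6.48, 5.86 to 7.18), Cd74 at 342 CPM against 70.7 CPM (4.84, 4.46 to 5.26) and H2-Eb1 at 188 CPM against 28.8 CPM (6.54, 5.76 to 7.43). Ccr9 was at 2.44 CPM against 11.2 CPM. Hlf was at 85.0 CPM in suffix 2 against 262 CPM in suffix 1 (0.324, 0.299 to 0.351), and Egr1, an immediate early factor, at 51.1 CPM against 135 CPM (0.380, 0.342 to 0.422). The comparison cells, in which Ccr9 had 9 UMIs and no direction could be read, differed in the same direction for the others, with a suffix 2 over suffix 1 ratio of 21.2 for Ctsg, 4.54 for Cd74, 5.05 for H2-Eb1, 0.375 for Hlf and 0.489 for Egr1. Age, mouse and library cannot be told apart in these differences.

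The searched letters were counted in the 250 bases before the start of each gene on both strands. Of the 185 genes 130 had a promoter in the RefSeq table, and 8524 of the 10850 tested genes did. CAGGTG was in 16.2% of the former and 14.1% of the latter, CAGCTG in 10% and 10.7%, TGGGAA in 22.3% and 20.04%, and CCCNNGGG in 16.2% and 15.1%. GGAAGT was in 29.2% of the higher genes, 24.8% of all tested genes and 16.2% of the lower genes, and in 19.99% of the 27025 promoters of the table.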

How the data were processed

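The deposited matrix holds UMI counts per gene and cell for 31053 genes and 4688 cells, which the authors made with Cell Ranger (3.1.0 and the builds GRCm38 and mm10, per the submitters' processing notes) and aggregated over both libraries with a normalization of depth. Tag values were deposited by the authors as log10 of counts from CITE-seq-Count, and a count of 0 was placed below every other value. The authors' cell filter (under 10% mitochondrial UMIs, over 1500 genes) was applied here and left 4068 cells, with 27345371 UMIs in suffix 1 and 44021962 UMIs in suffix 2.

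Counts were summed over cells and divided by the total of these cells (CPM). A gene was tested where at least 5% of either group had a UMI, and called at 1.5-fold over all cells and in each library. Intervals at 95% are Clopper-Pearson for shares, conditional binomial for ratios and order statistics for medians. Cells were thinned to 9000 UMIs where shares are compared, leaving out shallower ones. Doublets were called with scrublet (scanpy 1.11.5, expected rate 0.06). Python 3.11.15, numpy 2.4.6 and scipy 1.17.1 were used, and the calling was tested on simulated data. Genes named are the markers, the 15 largest and 15 smallest log2 ratios (5 CPM added) among called genes, and examples from fixed lists, among them the largest and smallest of a list. Some genes that the rule or the lists take are not reported here. Other genes of the lists are named as further examples. Members and lists were chosen with earlier results of these data known. Alternatives covered the thresholds of Dntt and Flt3, the cell filter, doublets, library, depth, scaling, detection and fold. Those on Flt3 in members, cells of 15000 to 20000 UMIs, 21 or more Dntt UMIs, immunoglobulin-rich cells and the ETS letters were chosen after seeing the data.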

Additional observations from a re-analysis of the deposited data

Results flagged for a closer look

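In 4 genes of the lists the ratio of members over comparison cells had an interval for counting error wholly above 1 in one library and wholly below 1 in the other, given here for suffix 1 and then suffix 2. For Mpo it was 1.96 and 0.610, for Ctsg 3.05 and 0.932, for Ifit3, an interferon-induced gene, 0.441 and 2.46, and for Calr, calreticulin, 1.12 and 0.906. The difference between the libraries was not tested. Outside the kept cells, 21 of the 620 cells left out by the cell filter had 2 or more Dntt UMIs, 18 of them above the mitochondrial limit and 8 below the gene limit.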

How the results depend on the processing

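The share of members among kept cells, 20.6%, was 27.7% with 1 or more Dntt UMIs, 17.6% with 3 or more, 18.3% without the cell filter, 34.7% under the stricter filter (under 5% mitochondrial UMIs and over 2500 genes) and 16.5% with cells thinned to 9000 UMIs. The counts of genes called higher and lower, 185 and 522, became 121 and 273 with 1 or more Dntt UMIs, 539 and 1015 against all kept cells without Dntt, 387 and 810 under the stricter filter, 524 and 993 in suffix 1 alone, 330 and 878 in suffix 2 alone, 360 and 1032 with no detection filter, 91 and 172 with detection in 20% of cells, 75 and 159 with 5 CPM added, 68 and 188 at 2-fold, and 414 and 1070 for members with 21 or more Dntt UMIs. The higher count was 308 in cells of 15000 to 20000 UMIs, and the lower count 238 against comparison cells that were also CD48-high and CD150-low. Of the 185 and 522 genes, 95 and 237 were also called in cells of 15000 to 20000 UMIs (171 and 501 kept their direction), 96 and 269 after thinning (185 and 522 kept it) and 113 and 188 against the CD48-high cells. The 10 mitotic genes called higher were 22 against all cells without Dntt, 21 in suffix 1 and 0 in cells of 15000 to 20000 UMIs, and the 6 erythroid and megakaryocyte genes called lower were 11 against all cells without Dntt. The log10 difference of the CD48 medians, 0.262, was 0.361 against cells with 1 or more Flt3 UMIs, 0.718 against all cells without Dntt, 0.105 against CD48-high cells, 0.142 under the stricter filter, 0.209 in suffix 2, 0.317 with 21 or more Dntt UMIs and 0.0212 as a share of the cell's tags. For CD150 it was -0.176, and -0.301, -0.903 and 0 against the former 3 groups and -0.385 as a share. For CLCA3A1 it was -0.222, and -0.620 against all cells without Dntt, -0.146 under the stricter filter, -0.523 with 21 or more Dntt UMIs and -0.435 as a share. The causes were not tested. The CD150 difference was also -0.301 in suffix 1, in cells of 15000 to 20000 UMIs and with 21 or more Dntt UMIs, and the 9 early lymphoid genes called higher were 6 after thinning and 13 against all cells without Dntt. The CD48, CD150 and CLCA3A1 differences kept their sign, except that of CD150, which went to 0 against the CD48-high CD150-low cells. Those cells were chosen by these same CD48 and CD150 tags. The CD48 and CD150 differences against them are thus in part fixed by that choice. In cells of 15000 to 20000 UMIs the median log2 ratio turned from 0.26 to -0.15 for the S phase list and from -0.10 to 0.33 for the interferon list, and against all cells without Dntt from -0.25 to 0.11 for the granule and myeloid list. No paired analysis was possible because the matrix counts as 1 sample. With 1 library per age, differences between libraries have no replicate, and transcripts of few UMIs such as Il7r and Rag1 cannot be read as absent at this depth.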
